A study of Citrus maxima and Citrus sinensis with 8 samples.

Results

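The phosphate-sensing SPX genes and the phosphoenolpyruvate carboxylase (PEPC) kinase gene were followed in citrus roots given aluminum (Al). The 3 genes were SPX domain gene 2 (SPX2, Cs4g17870), SPX domain-containing protein 3-like (SPX3-like, orange1.1t00194) and phosphoenolpyruvate carboxylase kinase 1 (PPCK1, Cs8g12690), out of 30151 genes in the expression tables. They were picked by gene identifier from the genes that the study grouped as responsive to low phosphorus, and their responses to Al in these libraries were known when they were picked. Their levels and fold changes are therefore a description, without a test.

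In Arabidopsis and rice, small SPX proteins bind inositol pyrophosphates when phosphate is plentiful and then hold the PHR transcription factors away from their target genes. When phosphate runs short the PHR factors are set free, and genes of small SPX proteins are themselves among their targets, so that SPX transcripts are widely used as a readout of the phosphate status of a root. PEPC kinase phosphorylates PEPC, which makes oxaloacetate from phosphoenolpyruvate and bicarbonate, and the phosphorylated enzyme is less inhibited by malate. PEPC kinases are known for being regulated largely through their own transcript level, and Arabidopsis PPCK genes respond to phosphate starvation.

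The study sequenced RNA from root tips of seedlings of 'Shatian pummelo' (C. grandis), which it describes as Al-intolerant, and 'Xuegan' (C. sinensis), described as Al-tolerant. There were 4 groups with 2 libraries each, namely C. grandis +Al, C. grandis control, C. sinensis +Al and C. sinensis control. The +Al seedlings received 1.0 mM AlCl3 in an acid nutrient solution for 18 weeks and the control seedlings the same acid solution with 0 mM Al. Each library came from the pooled roots of 5 seedlings grown in sand, and each species was represented by a single cultivar. The p-values and standard errors below rest on spread between pools, which limma shared across genes of like level. The weight of the other genes (prior degrees of freedom) was 36.2 in the C. grandis fit and 3.5 in the C. sinensis fit. They are therefore not each gene's own spread and do not compare directly between the species. The values are FPKM, fragment counts scaled by transcript length and by the depth of the library. Between libraries they compare only roughly. The median ratio of a library to the geometric mean of the 8 libraries ran from 0.848 in C. grandis +Al library 1 to 1.13 in C. grandis +Al library 2. In bulk roots, fewer cells of a type and less RNA per cell cannot be told apart.

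The libraries summed to between 713378 and 859570 FPKM and had between 17594 and 18562 genes at 1 FPKM or more. Their relative depth, here only an estimate from the steps between low FPKM values and not a count of reads, ranged from 0.700 in C. grandis +Al library 1 to 1. Of 31 root genes (Casparian strip and CASP-like, scarecrow-like, WUSCHEL-related homeobox, root cap and root hair genes), 19 or 20 reached 1 FPKM in every library, with summed levels of 510 and 639 FPKM in C. grandis +Al roots against 559 and 614 FPKM in their controls, and of 630 and 660 FPKM in C. sinensis +Al roots against 585 and 590 FPKM in their controls. Single root genes did move, chosen here after their values were seen. In C. grandis the scarecrow-like gene Cs1g24030 fell, at 6.33 and 8.84 FPKM with Al against 34.7 and 34.5 FPKM in the controls (log2 fold change -2.19, adjusted p 3.5e-07 in limma), and the CASP-like gene Cs1g23460 rose, at 36.3 and 40.1 FPKM with Al against 15.5 and 14.96 FPKM in the controls (1.32, adjusted p 0.00052), a call lost without control replicate 1 (adjusted p 0.11) or control replicate 2 (adjusted p 0.15). In C. sinensis the Casparian strip gene Cs8g14760 rose, at 32.2 and 32.3 FPKM with Al against 14.0 and 13.9 FPKM in the controls (1.203, adjusted p 0.00031). The part of these root genes in the results below was not tested. Of 37 photosynthesis genes, 17 to 21 reached 1 FPKM, and their summed level was 261 and 298 FPKM in C. grandis +Al roots against 262 and 287 FPKM in their controls, and 154 and 159 FPKM in C. sinensis +Al roots against 196 and 199 FPKM in their controls. C. grandis +Al library 2 read above library 1 over most genes, with a median ratio of 1.32 over 17867 genes. Reads of C. grandis were placed on the genome of C. sinensis, so a difference in level between the species cannot be told apart from a difference in mapping.

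SPX2 was the most abundant of the 3 genes in Al-treated roots. It had 568 and 790 FPKM in C. grandis +Al roots, against 65.8 and 57.3 FPKM in C. grandis control roots. It had 114 and 95.3 FPKM in C. sinensis +Al roots, against 35.3 and 36.1 FPKM in C. sinensis control roots. The groups did not overlap in either species, and every +Al library lay above all 4 control libraries. With 2 libraries per group, groups can easily separate without a response. The share of all genes without overlap was not counted, here or below. The means were 679 ± 157 FPKM in C. grandis +Al roots against 61.6 ± 6.05 FPKM in their controls, an 11.0-fold ratio, and 105 ± 13.5 FPKM in C. sinensis +Al roots against 35.7 ± 0.587 FPKM in their controls, a 2.94-fold ratio (SD, n = 2 libraries per group). Ranked by FPKM among all genes of its library, SPX2 stood at places 132 and 84 in the C. grandis +Al libraries, against places 2369 and 2579 in the C. grandis control libraries. In C. sinensis it stood at places 1288 and 1587 with Al, against places 4197 and 4177 in the controls.

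SPX3-like followed the same order of treatments, at a lower level than SPX2 except in C. sinensis controls, where both genes were nearly level. It had 199 and 271 FPKM in C. grandis +Al roots, against 29.3 and 23.6 FPKM in C. grandis control roots. It had 72.9 and 62.8 FPKM in C. sinensis +Al roots, against 35.8 and 36.8 FPKM in C. sinensis control roots. All +Al libraries were again above all control libraries, but the controls were ordered the other way round from SPX2, with C. sinensis above C. grandis. The means were 235 ± 51.4 FPKM in C. grandis +Al roots against 26.4 ± 4.02 FPKM in their controls, an 8.88-fold ratio, and 67.8 ± 7.14 FPKM in C. sinensis +Al roots against 36.3 ± 0.689 FPKM in their controls, a 1.87-fold ratio (SD, n = 2). Its place in the library was 502 and 403 in C. grandis +Al roots, against 4987 and 5519 in C. grandis control roots.

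PPCK1, the kinase that phosphorylates PEPC, stood high in C. grandis +Al roots and low in the other 3 groups. It had 154 and 212 FPKM in C. grandis +Al roots, against 35.2 and 40.4 FPKM in C. grandis control roots. It had 26.4 and 27.9 FPKM in C. sinensis +Al roots, against 24.5 and 22.4 FPKM in C. sinensis control roots. The C. sinensis groups did not overlap, but the lower +Al library was only 1.08 times the higher control library. The means were 183 ± 40.8 FPKM in C. grandis +Al roots against 37.8 ± 3.72 FPKM in their controls, a 4.85-fold ratio, and 27.1 ± 1.06 FPKM in C. sinensis +Al roots against 23.4 ± 1.46 FPKM in their controls, a 1.16-fold ratio (SD, n = 2). Unlike the SPX genes, PPCK1 was lower in Al-treated C. sinensis roots than in untreated C. grandis roots.

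**Figure D1:**
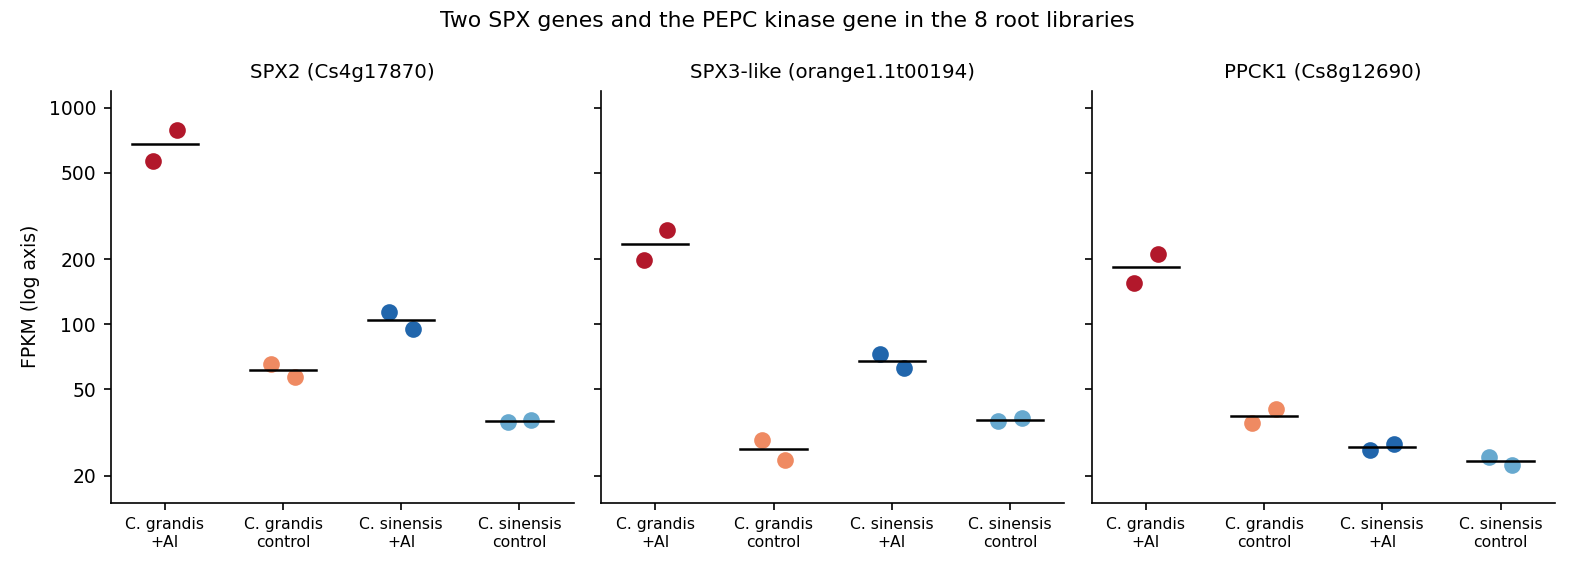
FPKM (log axis) of SPX2, SPX3-like and PPCK1 in each of the 8 libraries, with a point per library and a line at the mean of the 2 libraries of a group. C. grandis +Al roots held the highest levels of all 3 genes (568 and 790 FPKM for SPX2), whereas PPCK1 in C. sinensis stayed between 22.4 and 27.9 FPKM in all 4 libraries.

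Put in order of level, SPX2 ran C. grandis +Al, C. sinensis +Al, C. grandis control and C. sinensis control. SPX3-like ran C. grandis +Al, C. sinensis +Al, C. sinensis control and C. grandis control, and PPCK1 ran C. grandis +Al, C. grandis control, C. sinensis +Al and C. sinensis control. No neighbours in these orders overlapped, though several gaps were narrow and the share of all genes without overlap was not counted. The lowest C. grandis +Al library was 4.96 times the highest library of the next group for SPX2, 2.72 times for SPX3-like and 3.82 times for PPCK1. The gap was 1.22 times between C. sinensis and C. grandis controls for SPX3-like and 1.26 times between C. grandis control and C. sinensis +Al roots for PPCK1. Between the species, the C. grandis mean was 6.47 times that of C. sinensis for SPX2, 3.46 times for SPX3-like and 6.75 times for PPCK1 with Al, and 1.73, 0.729 and 1.61 times in the controls, ratios that mapping to the C. sinensis genome can shift.

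On the log2(FPKM + 0.1) scale used for the fit over all genes, the response to Al in C. grandis was 3.45 for SPX2 (standard error 0.21), 3.14 for SPX3-like (standard error 0.24) and 2.26 for PPCK1 (standard error 0.24). In C. sinensis it was 1.55 for SPX2 (standard error 0.10), 0.90 for SPX3-like (standard error 0.09) and 0.21 for PPCK1 (standard error 0.08). Subtracting the C. sinensis response from the C. grandis response left 1.90 for SPX2 (standard error 0.25), 2.24 for SPX3-like (standard error 0.26) and 2.05 for PPCK1 (standard error 0.24). The responses of the 3 genes thus spanned 2.26 to 3.45 in C. grandis and 0.21 to 1.55 in C. sinensis, while the differences between the species lay closer together.

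A gene was called at a Benjamini-Hochberg adjusted p of 0.05 or less in limma together with a log2 fold change of 1 or more in either direction. The genes tested were those averaging 1 FPKM or more in a group, and all 3 genes passed that filter in every group, as their lowest value was 22.4 FPKM. By that rule 3 of the 3 genes rose in C. grandis, where 12.5% of 18677 genes tested were called (5.2% rose and 7.25% fell), and 1 of the 3, SPX2, rose in C. sinensis, where 8.53% of 19152 genes were called (4.46% rose and 4.06% fell). SPX3-like fell just short of the fold limit in C. sinensis and passed it without C. sinensis +Al replicate 2 (log2 fold change 1.01), which makes 2 of the 3. With no filter on low values, so that genes listed at 0 in every library also entered the fit, limma called 0 of the 3 genes in C. grandis and 111 genes in all, and none of the C. grandis calls given here for other genes was kept. The difference between the species, called on the adjusted p alone, was called for 3 of the 3 genes, beside 17.6% of 20158 genes (6.27% higher and 11.3% lower in C. grandis). Since the genes were chosen on these contrasts, nothing is read from the counts. Among all genes tested, SPX2, SPX3-like and PPCK1 ranked 141, 183 and 357 by log2 fold change in C. grandis and 429, 1365 and 6142 in C. sinensis.

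**Figure D2:**
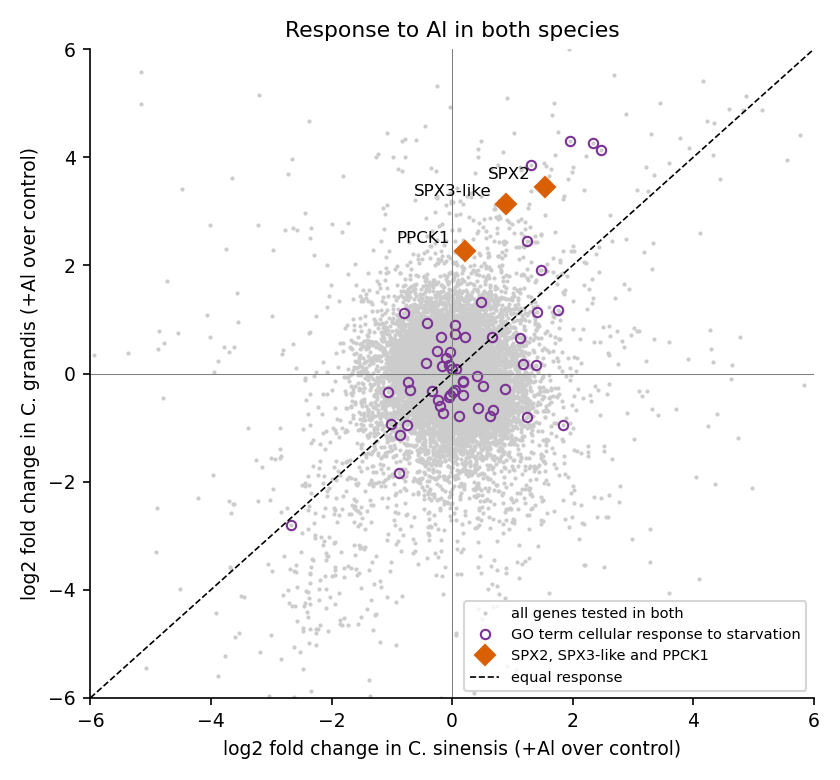
log2 fold change (+Al over control) in C. grandis on the vertical axis against that in C. sinensis on the horizontal axis, for 17671 genes tested in both species (grey, 34 of them beyond the axes), with 55 of 56 plotted genes of a starvation term as open circles and SPX2, SPX3-like and PPCK1 as diamonds. The 3 genes lie above the dashed line of equal response, at 3.45, 3.14 and 2.26 in C. grandis and at 1.55, 0.90 and 0.21 in C. sinensis.

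The gap between the 2 C. grandis +Al libraries was about as wide for these genes as for genes at large. In C. grandis +Al roots, library 2 was 1.39 times library 1 for SPX2 and 1.37 times for both SPX3-like and PPCK1, beside the median of 1.32 over all genes. After each library was divided by its median ratio to the others, these became 1.05, 1.03 and 1.03. The rescaling changed the C. grandis responses little, to 3.45 for SPX2, 3.14 for SPX3-like and 2.26 for PPCK1.

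Ratios between genes within a library do not depend on how libraries are scaled to each other. SPX2 was 2.86 and 2.91 times SPX3-like in C. grandis +Al roots, against 2.25 and 2.43 times in C. grandis control roots. In C. sinensis the ratio was 1.57 and 1.52 with Al, against 0.985 and 0.982 in the controls. The share of SPX2 was thus higher with Al in both species and higher in C. grandis than in C. sinensis at each Al level, though mapping can shift the species comparison.

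SPX2 was 3.68 and 3.72 times PPCK1 in C. grandis +Al roots, against 1.87 and 1.42 times in C. grandis control roots. It was 4.34 and 3.42 times PPCK1 in C. sinensis +Al roots, against 1.44 and 1.61 times in C. sinensis control roots. The species overlapped in this ratio at both Al levels, whereas +Al and control libraries did not overlap.

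PPCK1 can also be set against a PEPC gene. PEPC gene Cs8g09580 was the most abundant PEPC gene, and PPCK1 reached 0.606 and 0.546 of its FPKM in C. grandis +Al roots, against 0.147 and 0.169 in C. grandis control roots. In C. sinensis the ratio was 0.140 and 0.145 with Al, against 0.130 and 0.112 in the controls. C. grandis +Al roots stood apart from the other 6 libraries, which all lay between 0.112 and 0.169. This is not a ratio to all PEPC transcript. It leaves out PEPC gene orange1.1t05524, which had 241 and 186 FPKM in C. grandis +Al roots against 89.7 and 77.2 FPKM in their controls.

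**Figure D3:**
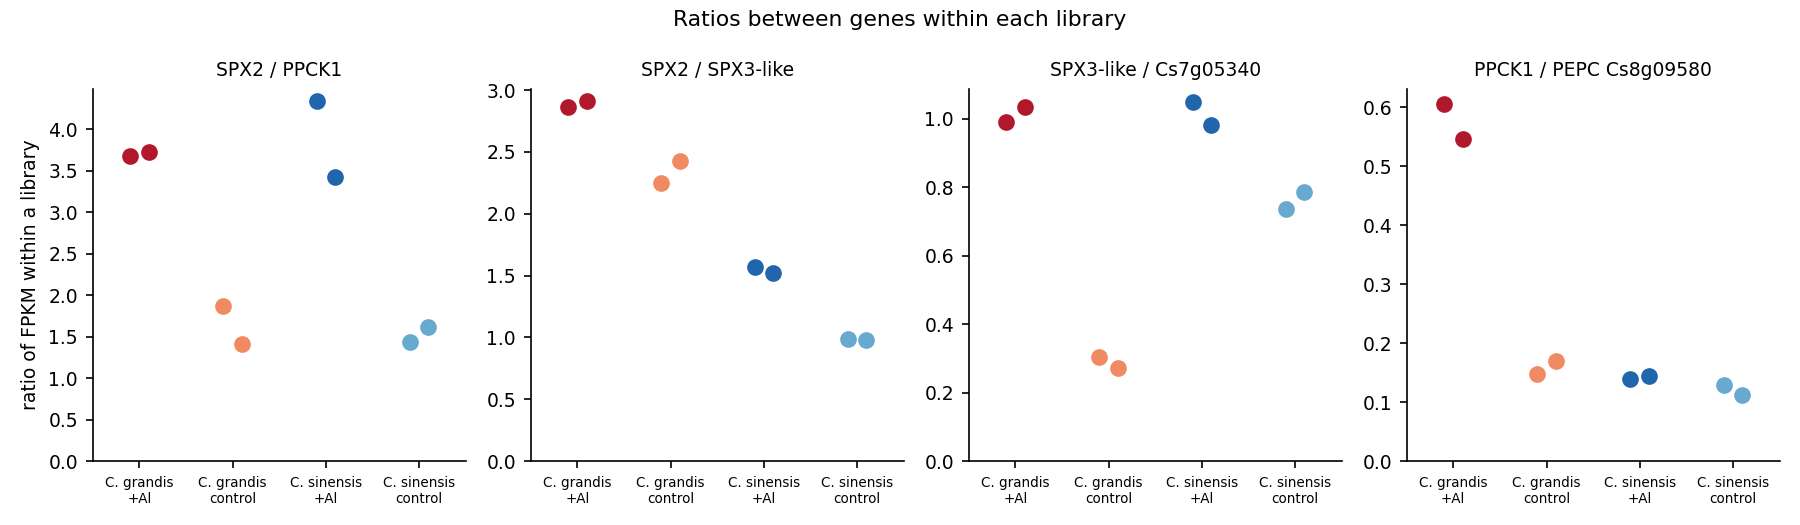
Ratio of FPKM between pairs of genes within each of the 8 libraries, a point per library, with groups along the horizontal axis. PPCK1 over PEPC Cs8g09580 was 0.606 and 0.546 in C. grandis +Al roots and at most 0.169 elsewhere, and SPX2 over PPCK1 was above 3.4 in all +Al libraries and below 1.9 in all control libraries.

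The wider SPX family held 6 further genes by their descriptions, of which 5 were tested in C. grandis and 4 in C. sinensis. Of these, 1 of 5 rose in C. grandis, with a median log2 fold change of 0.06, and limma called 0 of 4 in C. sinensis, with a median of -0.45 and 3 at an unadjusted p under 0.05. Over all genes tested, the median was -0.01 in the C. grandis fit and 0.00 in the C. sinensis fit. The gene that rose was SPX domain-containing protein 2 (Cs7g05340), another small SPX protein. It had 200 and 262 FPKM in C. grandis +Al roots, against 96.4 and 86.7 FPKM in C. grandis control roots (log2 fold change 1.32, standard error 0.22, adjusted p 1.7e-05 in limma). In C. sinensis it had 69.5 and 64.0 FPKM with Al, against 48.5 and 46.8 FPKM in the controls (log2 fold change 0.48, standard error 0.07, adjusted p 0.0040, short of the fold limit). The groups did not overlap in either species. Its response differed between the species by 0.84 (standard error 0.21, adjusted p 0.030), a call that was lost when any of 6 of the 8 libraries was left out, with adjusted p between 0.069 and 0.13.

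In untreated roots Cs7g05340 was the most abundant of the small SPX genes, and with Al it was not. SPX2 over Cs7g05340 was 2.84 and 3.02 in C. grandis +Al roots, against 0.683 and 0.661 in C. grandis control roots, and 1.65 and 1.49 in C. sinensis +Al roots, against 0.727 and 0.771 in C. sinensis control roots. SPX3-like over Cs7g05340 was 0.991 and 1.04 in C. grandis +Al roots, against 0.304 and 0.272 in C. grandis control roots. In C. sinensis it was 1.05 and 0.981 with Al, against 0.738 and 0.785 in the controls. SPX3-like and Cs7g05340 were thus nearly level in the +Al libraries of both species, and SPX3-like was the lower of the pair in all control libraries.

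The SPX proteins with further domains are membrane transporters or ubiquitin ligases. The SPX-MFS gene orange1.1t00286, related in other plants to vacuolar phosphate transporters, had 14.8 and 30.7 FPKM in C. grandis +Al roots, against 23.7 and 17.5 FPKM in their controls, and the groups overlapped. In C. sinensis it had 18.8 and 19.9 FPKM with Al, against 32.6 and 38.1 FPKM in the controls (log2 fold change -0.86, adjusted p 0.0022, short of the fold limit). EXS family genes orange1.1t00288 and orange1.1t00289, of the PHO1 type that exports phosphate to the xylem in Arabidopsis, had log2 fold changes of -0.13 and -0.65 in C. grandis and -0.19 and -0.72 in C. sinensis and were not called. The SPX-RING gene Cs6g13210 had 1.78 and 1.53 FPKM in C. grandis +Al roots, against 0.574 and 0.620 FPKM in their controls (log2 fold change 1.33, adjusted p 0.18), and was under 1 FPKM in all C. sinensis libraries. Gene Cs7g03470 of the EXS family was listed at 0 in every library.

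Among the 8 other genes whose descriptions name PEPC or PEPC kinase, 1 rose in C. grandis and 1 in C. sinensis, and it was the same gene. The median log2 fold change of the 8 was 0.13 in C. grandis and -0.04 in C. sinensis. The list rests on description words alone, and Cs5g24490 and orange1.1t00421, described only as PEPC family proteins, may encode other enzymes of that family. PEPC gene orange1.1t05524 had 241 and 186 FPKM in C. grandis +Al roots, against 89.7 and 77.2 FPKM in C. grandis control roots (log2 fold change 1.35, standard error 0.22, adjusted p 1.7e-05). It had 71.7 and 167 FPKM in C. sinensis +Al roots and was listed at 0 in both C. sinensis control libraries, so no fold is given there. The main PEPC gene Cs8g09580 had 255 and 388 FPKM in C. grandis +Al roots, against 239 and 239 FPKM in C. grandis control roots (log2 fold change 0.40, adjusted p 0.23). In C. sinensis it had 189 and 192 FPKM with Al, against 189 and 200 FPKM in the controls (log2 fold change -0.03, adjusted p 0.70). PEPC gene Cs2g15520 was lower with Al without reaching the fold limit, at 5.21 and 7.60 FPKM in C. grandis +Al roots against 13.2 and 11.5 FPKM in their controls, and at 6.02 and 6.45 FPKM in C. sinensis +Al roots against 10.6 and 10.3 FPKM in their controls.

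A further gene described as PEPC kinase 1, Cs4g01040, was far less abundant than PPCK1. It had 11.1 and 6.98 FPKM in C. grandis +Al roots, against 4.87 and 4.45 FPKM in C. grandis control roots (log2 fold change 0.91, standard error 0.35, adjusted p 0.075). It had 4.46 and 2.87 FPKM in C. sinensis +Al roots, against 3.10 and 3.23 FPKM in C. sinensis control roots (log2 fold change 0.17, adjusted p 0.63). Its C. sinensis groups overlapped and its C. grandis groups did not. PEPC-related kinase 1 (Cs9g16760), a protein kinase related to PEPC kinase, had 48.7 and 74.7 FPKM in C. grandis +Al roots against 51.3 and 51.5 FPKM in their controls, and 22.3 and 20.5 FPKM in C. sinensis +Al roots against 37.0 and 39.0 FPKM in their controls. Its response differed between the species by 1.06 (standard error 0.27, adjusted p 0.035), and that call was lost when any of 6 libraries was left out, with adjusted p between 0.11 and 0.15. PEPC-related kinase 2 (Cs3g17600) and the PEPC family genes Cs5g24490 and orange1.1t00421 had log2 fold changes between -0.23 and 0.02 in C. grandis and between -0.08 and -0.04 in C. sinensis.

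**Figure D4:**
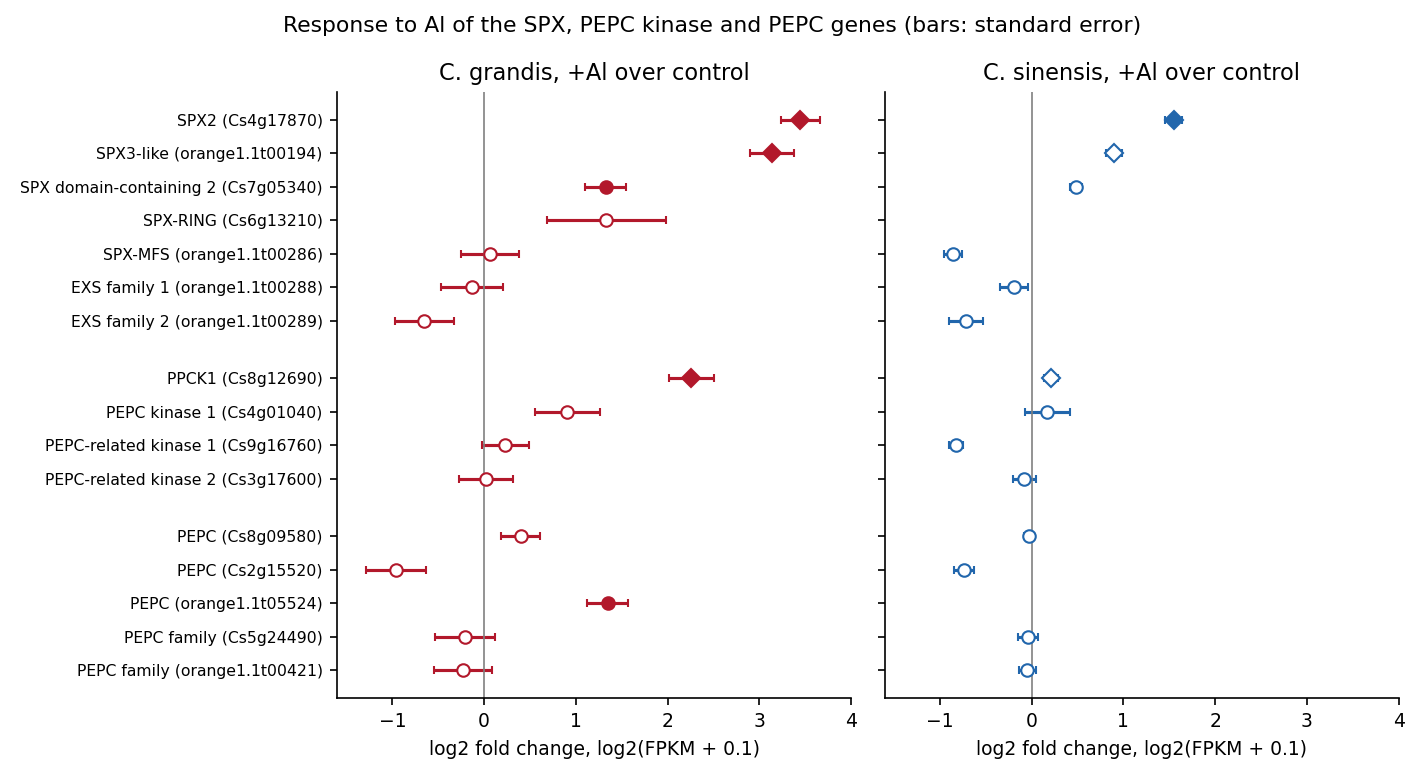
log2 fold change (+Al over control, on log2(FPKM + 0.1)) of the SPX, PEPC kinase and PEPC genes in C. grandis on the left and C. sinensis on the right, with bars for the standard error, diamonds for SPX2, SPX3-like and PPCK1, and filled symbols for genes past the call rule. SPX2 and SPX3-like stand at 3.45 and 3.14 in C. grandis and the EXS genes at -0.13 and -0.65. Cs6g13210, not tested in C. sinensis, and orange1.1t05524, listed at 0 in C. sinensis controls, are left out on the right.

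The PHR1-like factors, which SPX proteins bind, were measured as 2 genes. Both had lower means with Al in C. sinensis, and in C. grandis their values differed in sign. Cs3g02680 had 21.1 and 31.8 FPKM in C. grandis +Al roots, against 18.9 and 14.3 FPKM in their controls (log2 fold change 0.65, adjusted p 0.14), and 13.1 and 12.6 FPKM in C. sinensis +Al roots, against 15.6 and 15.9 FPKM in their controls (log2 fold change -0.29, adjusted p 0.042). orange1.1t02259 fell in C. sinensis, at 2.53 and 1.74 FPKM with Al against 4.41 and 4.33 FPKM in the controls (log2 fold change -1.02, adjusted p 0.021), a call lost without C. sinensis +Al replicate 2 (-0.77, adjusted p 0.072) and without either control replicate (adjusted p 0.13 each). In C. grandis it had 2.32 and 4.41 FPKM with Al, against 7.11 and 6.09 FPKM in the controls (log2 fold change -1.01, adjusted p 0.070). The inositol phosphate kinases, whose products lead to the ligands of SPX domains, had 0 of 6 genes called by limma in C. grandis, 0 of them at an unadjusted p under 0.05, and 1 of 8 in C. sinensis, with medians of -0.12 and 0.01. The most abundant, Cs3g16540, had 62.9 and 87.1 FPKM in C. grandis +Al roots against 98.1 and 78.9 FPKM in their controls, and 85.6 and 84.0 FPKM in C. sinensis +Al roots against 87.0 and 86.5 FPKM in their controls. The gene called in C. sinensis, Cs5g25570, had 4.91 and 3.52 FPKM with Al against 1.98 and 1.26 FPKM in the controls (log2 fold change 1.34, adjusted p 0.020), and lost the call when any of the 4 libraries was left out (adjusted p between 0.052 and 0.12).

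Phosphate transport genes did not share a direction. The most abundant, the mitochondrial phosphate carrier Cs2g14350, had 132 and 147 FPKM in C. grandis +Al roots against 182 and 188 FPKM in their controls, and 233 and 243 FPKM in C. sinensis +Al roots against 186 and 181 FPKM in their controls. In C. grandis 2 of 13 rose and 2 fell, with a median log2 fold change of -0.01, and in C. sinensis 2 of 13 rose and 1 fell, with a median of 0.38. The match by description words also took in a gene described as a mitochondrial thiamine pyrophosphate carrier (Cs9g04580). It was not called in either species, and its own log2 fold change is the median given for C. grandis. Phosphate transporter Cs3g27660 rose in C. grandis, at 49.9 and 84.7 FPKM with Al against 14.98 and 13.24 FPKM in the controls (log2 fold change 2.20, adjusted p 1.2e-07), and had 11.6 and 10.1 FPKM in C. sinensis +Al roots against 9.71 and 9.09 FPKM in their controls. Like PPCK1, it had a response in C. grandis with little in C. sinensis. Phosphate transporter Cs5g29860 rose in C. sinensis, at 146 and 165 FPKM with Al against 70.8 and 74.2 FPKM in the controls (log2 fold change 1.097, adjusted p 0.00045), and had 38.9 and 51.3 FPKM in C. grandis +Al roots against 47.3 and 45.5 FPKM in their controls. Phosphate transporter Cs9g18560 fell in both, at 11.1 and 4.09 FPKM in C. grandis +Al roots against 101 and 125 FPKM in their controls (log2 fold change -4.03, adjusted p 8.2e-13), and at 9.72 and 10.3 FPKM in C. sinensis +Al roots against 53.4 and 52.3 FPKM in their controls (log2 fold change -2.39, adjusted p 9.1e-05). The mitochondrial phosphate carrier Cs7g19830 rose in both (log2 fold changes 1.57 and 1.13) and the Na+/Pi symporter Cs2g04480 fell in C. grandis (log2 fold change -1.69, adjusted p 0.0068), but both C. grandis calls were lost whichever C. grandis library was left out, with adjusted p between 0.078 and 0.44 for Cs7g19830 and between 0.064 and 0.31 for Cs2g04480.

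The purple acid phosphatases free phosphate from organic esters, and 4 of the 16 tested in C. grandis rose and 1 fell, as did 5 and 1 of the 17 tested in C. sinensis. The median log2 fold change was 0.49 in C. grandis and 0.40 in C. sinensis. The most abundant, Cs7g03110, had 82.8 and 123 FPKM in C. grandis +Al roots against 63.2 and 72.0 FPKM in their controls (log2 fold change 0.58, adjusted p 0.11), and 59.9 and 62.4 FPKM in C. sinensis +Al roots against 72.4 and 75.4 FPKM in their controls (-0.27, adjusted p 0.016). Purple acid phosphatase 15 (Cs5g27880) rose in C. grandis, at 33.2 and 47.5 FPKM with Al against 19.6 and 17.7 FPKM in the controls (log2 fold change 1.09, adjusted p 0.0046), and had 18.6 and 19.4 FPKM in C. sinensis +Al roots against 14.3 and 14.5 FPKM in their controls. A 15-like gene, orange1.1t02445, rose in both, at 19.99 and 32.33 FPKM in C. grandis +Al roots against 10.6 and 9.79 FPKM in their controls (1.31, adjusted p 0.0016), and at 5.26 and 5.44 FPKM in C. sinensis +Al roots against 2.51 and 1.74 FPKM in their controls (1.31, adjusted p 0.0083). Purple acid phosphatases 12 (Cs3g25470, 2.46 in C. grandis and 1.25 in C. sinensis, rising in both) and 23 (Cs8g11340, 1.38 in C. grandis) completed the 4 that rose in C. grandis and are named after their values were seen. Of those 4 C. grandis calls, that of Cs3g25470 alone was kept whichever library was left out. The calls of Cs5g27880, Cs8g11340 and orange1.1t02445 were each lost without +Al replicate 2 (log2 fold changes 0.83, 1.01 and 0.96) and without either control replicate (adjusted p between 0.15 and 0.42). In C. sinensis the calls of Cs3g25470 and orange1.1t02445 were lost without either +Al replicate or control replicate 2 (adjusted p between 0.055 and 0.10). Purple acid phosphatase 10 (Cs8g08310), a secreted enzyme in Arabidopsis, had 31.3 and 34.5 FPKM in C. grandis +Al roots against 30.1 and 28.1 FPKM in their controls, and rose in C. sinensis, at 30.8 and 35.9 FPKM with Al against 14.6 and 14.7 FPKM in the controls (log2 fold change 1.18, adjusted p 0.00077). Purple acid phosphatase 17 (orange1.1t02668) was listed at 0 in all C. grandis libraries and had 20.5 and 17.0 FPKM in C. sinensis +Al roots against 5.02 and 8.18 FPKM in their controls (log2 fold change 1.53, adjusted p 0.0065). The call of orange1.1t02668 was lost without either +Al replicate (adjusted p 0.073 without replicate 1 and 0.052 without replicate 2). Purple acid phosphatase 2 (Cs8g08300) had 6.31 and 7.39 FPKM in C. grandis +Al roots against 4.89 and 3.74 FPKM in their controls, and rose in C. sinensis, at 18.2 and 17.5 FPKM with Al against 8.23 and 8.02 FPKM in the controls (1.13, adjusted p 0.00069). The gene that fell, in both species, was purple acid phosphatase 27 gene Cs7g02530. It had 1.02 and 0.551 FPKM in C. grandis +Al roots against 17.2 and 12.7 FPKM in their controls (-4.12, adjusted p 5.0e-10 in limma). In C. sinensis it had 0.168 and 0.240 FPKM with Al against 3.05 and 3.60 FPKM in the controls (-3.50, adjusted p 0.0020 in limma).

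Phospholipid replacement, in which galactolipids take the place of phospholipids when phosphate is short, had 3 of 8 genes that rose in C. grandis and 1 of 7 in C. sinensis, with medians of 0.24 and -0.02. The most abundant, non-specific phospholipase C3 (Cs7g15610), had 65.5 and 82.3 FPKM in C. grandis +Al roots against 113 and 121 FPKM in their controls, and 196 and 196 FPKM in C. sinensis +Al roots against 125 and 121 FPKM in their controls. Monogalactosyldiacylglycerol synthase 2 (Cs4g05250) rose in both, at 29.9 and 41.0 FPKM in C. grandis +Al roots against 2.37 and 2.26 FPKM in their controls (log2 fold change 3.86, standard error 0.32, adjusted p 3.6e-12), and at 14.6 and 13.0 FPKM in C. sinensis +Al roots against 5.38 and 5.58 FPKM in their controls (log2 fold change 1.32, standard error 0.11, adjusted p 0.00086). A further gene of that name (Cs7g06070) had 5.48 and 11.2 FPKM in C. grandis +Al roots against 0.165 FPKM in control library 1 and a listed 0 in control library 2. The glycerophosphodiester phosphodiesterase gene Cs7g02950 rose in C. grandis, at 14.0 and 19.8 FPKM with Al against 3.85 and 3.11 FPKM in the controls (log2 fold change 2.23, adjusted p 2.7e-06), and had 36.3 and 33.8 FPKM in C. sinensis +Al roots against 21.3 and 24.8 FPKM in their controls (log2 fold change 0.60, adjusted p 0.0069).

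Malate and citrate enzymes on the routes around PEPC, again matched by description words, were mostly uncalled, with 0 of 11 called by limma in C. grandis (1 at an unadjusted p under 0.05, median -0.22) and 1 that rose and 1 that fell of 12 in C. sinensis (median 0.11). The match also took in isopropylmalate dehydrogenase (Cs1g11670), an enzyme of leucine synthesis, which was not called in either species. The most abundant gene was NADP-dependent malic enzyme Cs4g15270, at 260 and 365 FPKM in C. grandis +Al roots against 393 and 406 FPKM in their controls, and at 272 and 264 FPKM in C. sinensis +Al roots against 321 and 316 FPKM in their controls. NADP-malic enzyme 4 (Cs4g19200), which turns malate into pyruvate, had 55.4 and 58.7 FPKM in C. grandis +Al roots against 65.3 and 60.5 FPKM in their controls, and rose in C. sinensis, at 159 and 157 FPKM with Al against 65.7 and 64.5 FPKM in the controls (log2 fold change 1.28, adjusted p 0.00014). Phosphoenolpyruvate carboxykinase (Cs3g16700), which runs from oxaloacetate to phosphoenolpyruvate, had 72.9 and 97.1 FPKM in C. grandis +Al roots against 110 and 104 FPKM in their controls, and fell in C. sinensis, at 22.3 and 22.0 FPKM with Al against 43.7 and 49.6 FPKM in the controls (log2 fold change -1.07, adjusted p 0.00065). Without C. sinensis control replicate 2 it no longer reached the fold limit (-0.98). In the C. grandis libraries, where PPCK1 was high with Al, none of these enzymes passed the call rule.

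All 3 genes carry the gene ontology term cellular response to starvation in the tables, a set of 63 genes looked at after the values had been seen. Of its other genes, 11 of 57 rose in C. grandis and 3 fell, which is 19.3% rising beside 5.2% of all genes, and 15 rose and 3 fell of 57 in C. sinensis, which is 26.3% beside 4.46%. Those that rose in both species numbered 9. The most abundant of them, the pyridoxal phosphate phosphatase-related gene Cs1g18540, had 871 and 1312 FPKM in C. grandis +Al roots against 60.1 and 48.2 FPKM in their controls (log2 fold change 4.31, standard error 0.22, adjusted p 1.3e-18), and 181 and 174 FPKM in C. sinensis +Al roots against 45.1 and 45.9 FPKM in their controls (log2 fold change 1.96, standard error 0.05, adjusted p 9.1e-05). Like SPX2 and SPX3-like, it was higher with Al in both species and by more in C. grandis. The median of the set was close to that of all genes, at 0.08 in C. grandis beside -0.01, and at 0.06 in C. sinensis beside 0.00. Of the 33 genes in the study's low-phosphorus group, a group chosen on these libraries and so no independent evidence of direction, 11 of the 28 tested besides the 3 genes rose in C. grandis and 6 fell, and 16 rose and 3 fell of 27 in C. sinensis.

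Across the 8 libraries, log2(FPKM + 0.1) of SPX2 had a Pearson correlation of 0.948 with SPX3-like and 0.935 with PPCK1, and SPX3-like one of 0.841 with PPCK1. These values describe 8 libraries in 4 groups that share treatment and species. Among 20157 other genes ranked by likeness to SPX2, SPX3-like held place 120 and PPCK1 place 169. By likeness to SPX3-like, SPX2 held place 106 and PPCK1 place 626. By likeness to PPCK1, SPX2 held place 229 and SPX3-like place 1136. The described genes most like SPX2 were the NAC domain gene Cs3g19890 (0.992), the MLO-like gene Cs8g16920 (0.991) and the uncharacterized gene Cs6g13360 (0.989). Those most like SPX3-like were the sulfate/bicarbonate/oxalate exchanger sat-1 gene Cs9g07580 (0.995), the SET domain gene Cs4g03400 (0.991) and Cs2g10140, described as cannabidiolic acid synthase-like (0.985). Those most like PPCK1 were the cytochrome P450 gene Cs5g14800 (0.994), the serine carboxypeptidase-like gene Cs8g03860 (0.994) and cyclic nucleotide-gated ion channel 4 (Cs1g06320, 0.993).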

How the data were processed

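Root-tip RNA from 8 libraries was sequenced. The authors filtered out ribosomal reads (Bowtie), aligned both species to the genome of C. sinensis (TopHat2) and deposited FPKM per gene from Cufflinks; the submitters' processing notes also name edgeR 3.0.0 and R 2.1.5. For the genome build, other versions and any scaling between libraries, no statement is given in the sources used here. The members and lists were chosen with earlier results of these data known.

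The planned main test, on counts, did not apply to FPKM. Genes averaging at least 1 FPKM in a group were fitted with limma 3.58.1 (R 4.3.3, trend of spread on level) on log2(FPKM + 0.1), which understates changes of low genes, separately for each species and over 8 libraries for the difference. Calls needed an adjusted p of at most 0.05 and, within a species, a log2 fold change of at least 1. The script was tested on simulated data. Tables used Python 3.11.15, pandas 2.3.3, numpy 2.4.6 and matplotlib 3.10.9.

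Lists were matched by keyword, without regard to case, in the descriptions that 43.0% of genes carry. Named were the 3 genes, SPX and PEPC genes, and of each other list called genes of high FPKM (at most 5) and the gene of highest mean FPKM. Genes named after their values were seen are marked as such. For likeness, the 3 described genes with the highest correlation were named. Relative depth was read from the most frequent ratio between libraries among values below 0.5 FPKM. Over genes, the replicate differences of +Al and control libraries had correlations of 0.04 in C. grandis and -0.01 in C. sinensis. Such values do not decide whether libraries of the same replicate number shared a batch. Sequences of the genes were not used here.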

Additional observations from a re-analysis of the deposited data

Results flagged for a closer look

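Besides SPX2, SPX3-like and PPCK1, 16 genes of the pathway lists and 12 found only in the starvation term responded differently in the 2 species. The test was limma on the difference in response to Al over 8 libraries (C. grandis minus C. sinensis, log2 scale). Over all 20158 genes tested, 17.6% were called, 6.27% higher in C. grandis and 11.3% lower. In the starvation term, 6 of the 58 other genes tested were higher in C. grandis and 12 lower. Phosphate transport had 1 higher and 4 lower of 13, and purple acid phosphatases 0 and 2 of 17. Phospholipid replacement had 3 and 1 of 8, and the malate and citrate enzymes 0 and 2 of 12. The other PEPC and PEPC kinase genes had 1 and 1 of 8, and the other SPX genes 1 and 0 of 5. Nothing is read from these counts. The genes given next are a selection of those called, and their split by direction is no measure of balance. Those with the higher response in C. grandis were monogalactosyldiacylglycerol synthase 2 Cs4g05250 (2.55, adjusted p 0.0014), the pyridoxal phosphate phosphatase-related gene Cs1g18540 (2.35, adjusted p 0.0017), phosphate transporter Cs3g27660 (1.998, adjusted p 0.0078), glycerophosphodiester phosphodiesterase Cs7g02950 (1.63, adjusted p 0.0093), PEPC-related kinase 1 Cs9g16760 (1.06, adjusted p 0.035) and SPX domain-containing protein 2 Cs7g05340 (0.84, adjusted p 0.030). Those with the lower response in C. grandis were the Na+/Pi symporter Cs2g04480 (-1.42, adjusted p 0.035), NADP-malic enzyme 4 Cs4g19200 (-1.42, adjusted p 0.0012), non-specific phospholipase C3 Cs7g15610 (-1.35, adjusted p 0.0030), phosphate transporter Cs5g29860 (-1.15, adjusted p 0.0100), purple acid phosphatase 10 Cs8g08310 (-1.002, adjusted p 0.013) and the mitochondrial phosphate carrier Cs2g14350 (-0.78, adjusted p 0.0092). Of these, Cs4g05250, Cs1g18540, Cs4g19200 and Cs7g15610 kept the call whichever library was left out, and the other 8 lost it without at least 1 library.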

How the results depend on the processing

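The log2 fold changes of SPX2, SPX3-like and PPCK1 kept their direction under every alternative run. Leaving out each library in turn gave 3.21 to 3.68 for SPX2, 2.91 to 3.36 for SPX3-like and 2.03 to 2.49 for PPCK1 in C. grandis, and 1.42 to 1.68, 0.79 to 1.01 and 0.15 to 0.27 in C. sinensis. The numbers of genes called moved more. In C. grandis 2326 genes were called, 111 with no filter on low genes and 910 with a fold limit of log2 2, and 1322 to 1803 when single libraries were left out. In C. sinensis 1633 genes were called, 329 with the fold limit of 2 and 1233 to 1459 without single libraries. The difference between the species was called for 3542 genes, for 6037 after rescaling by median ratios, and for 1161 to 7166 without single libraries. In the pathway lists, 14 genes were called in C. grandis and 15 in C. sinensis, beside 12.5% and 8.53% of all genes tested. The numbers tested per list are given above, and nothing is read from these counts. With no filter the counts were 1 and 10, and the 1 gene called in C. grandis was not among the 14. Keeping genes above 0 in a library, an alternative chosen after seeing the data, called 1791 genes in C. grandis and 13 of the lists. Of the list genes called, 9 of 14 in C. grandis and 9 of 15 in C. sinensis kept the call whichever library was left out. Where this left a group with 1 library, that library was assumed to vary like the others. Whether the replicate numbers pair libraries was not settled. With the replicate number as a block, 1719 genes were called in C. grandis and 1617 in C. sinensis, and SPX2 kept 3.45 and 1.55. FPKM keep no read counts, so the counting error of single values is unknown.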

Other observations

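Asparagine synthetase Cs8g20410, which makes the nitrogen-storing amino acid asparagine, had the highest mean of the starvation term over the 8 libraries, though catalase Cs3g27280 stood above it in all 4 +Al libraries. It was lower with Al, unlike the SPX genes. It had 1197 and 1489 FPKM in C. grandis +Al roots against 2912 and 2987 FPKM in their controls (log2 fold change -1.14, adjusted p 2.3e-07 in limma), and 889 and 946 FPKM in C. sinensis +Al roots against 1629 and 1726 FPKM in their controls (-0.87, adjusted p 0.00040, short of the fold limit). Without C. grandis +Al replicate 1 the C. grandis value was -0.99, short of the limit as well. The cupredoxin gene Cs1g14690 of the same term rose in both species, at 73.7 and 149 FPKM in C. grandis +Al roots against 43.7 and 48.7 FPKM in their controls (log2 fold change 1.18, adjusted p 0.0012), and at 39.7 and 35.4 FPKM in C. sinensis +Al roots against 11.1 and 11.0 FPKM in their controls (1.75, adjusted p 0.00022). Its C. grandis call was lost without +Al replicate 2 (0.68) and without either control replicate.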
